A study of Homo sapiens with 4 samples.

Results

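The genes described here encode the junctions that hold epithelial cells together. They are 30 genes, chosen by symbol, of the 26364 in the count table. By role they comprise 5 genes of adherens junctions, 9 of desmosomes and their plaque, 3 tight junction scaffolds, 8 tight junction membrane proteins, 4 polarity genes and EPCAM. The mRNAs came from polysomes of HCT116, a human colorectal carcinoma line known to carry an activating CTNNB1 mutation on a single allele. Polysome fractionation, usually done on a sucrose gradient, sorts mRNAs by how many ribosomes they carry. Wild type cells and cells labelled Dicer1 knockout each gave a heavy library (10 or more ribosomes per mRNA) and a light one (9 or fewer), so that there were 4 groups of 1 library. The pair of libraries from a genotype is called its gradient here. The labels name no further allele or agent, and do not say how the gene was altered or whether the labelled knockout is a single clone. Genotype and gradient cannot be told apart.

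Adherens junctions join neighbouring cells through the cadherin CDH1, whose tail binds the catenins, and the catenins link it to actin. Desmosomes do the same for keratin filaments, through desmosomal cadherins, armadillo proteins and plakins. Tight junctions seal the space between cells with claudins and occludin, held by scaffolds, and the Par and Crumbs complexes place them at the apical side. An mRNA with a longer coding sequence has room for more ribosomes, so the heavy to light ratios are also set against coding length further on. DICER1, the enzyme altered in the labelled knockout, makes microRNAs, and the miR-200 family is known for keeping epithelial cells epithelial by repressing ZEB1 and ZEB2, which shut off CDH1.

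The libraries held 17457116 to 20933675 counts, and the row for ribosomal RNA took 2.61 to 5.97% of them. The 30 junction genes together took 0.532% of wild type heavy, 0.294% of wild type light, 0.531% of knockout heavy and 0.328% of knockout light counts. Values in the 4 libraries are listed below in the order wild type heavy, wild type light, labelled knockout heavy, labelled knockout light. DICER1 had 500, 547, 925 and 889 counts. Its mRNA was thus higher in both libraries labelled knockout, and counts summed over the gene leave unseen whether a working enzyme can be made from it. Of 8 markers of colon epithelium, the keratins KRT8, KRT18 and KRT19 and the factor CDX2 all passed 50 counts in every library. VIL1 had no count in any library, and CDX1, CDH17 and LGALS4 had at most 2 in each. The summed level of 6 fibroblast markers was 9.89 to 51.0 CPM, nearly all of it from COL1A1 (468, 206, 911 and 304 counts), with DCN and LUM at 0. The sums of 4 endothelial and 5 blood markers reached at most 0.994 and 0.442 CPM.

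Of the 30 junction genes, 28 reached 50 counts in all 4 libraries. CLDN1, a barrier-forming claudin, had 12, 6, 6 and 1 counts and did not pass the filter on low counts. CTNND1, the p120 catenin that stabilises CDH1 at the membrane, had 50, 12, 50 and 15 counts. The exons of CTNND1 share 39.1% of their bases with another gene model on the same strand. The part of this overlap in the low count was not tested, and CTNND1 values are uncertain. Exon overlap with a same-strand model was 36.6% for F11R and 17.6% for CLDN12, and at most 11.1% on either strand for the others.

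Per kilobase of transcript, EPCAM, a cell adhesion protein that also binds claudins, had the highest level, with a mean of 524 CPM per kb over the 4 libraries. The claudins CLDN7 (246 CPM per kb) and CLDN4 (219.8) followed, then JUP (122), CTNNA1 (118) and CTNNB1 (80.1). At the low end stood OCLN (2.18 CPM per kb), CGN (1.75), MARVELD2 (1.44), CTNND1 (0.254) and CLDN1 (0.0938). The levels spanned more than 3 orders of magnitude, but this span rests on CLDN1 and CTNND1, with their few counts and the overlap of CTNND1. Without these genes it ran from 524 (EPCAM) to 1.44 CPM per kb (MARVELD2).

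**Figure D1:**
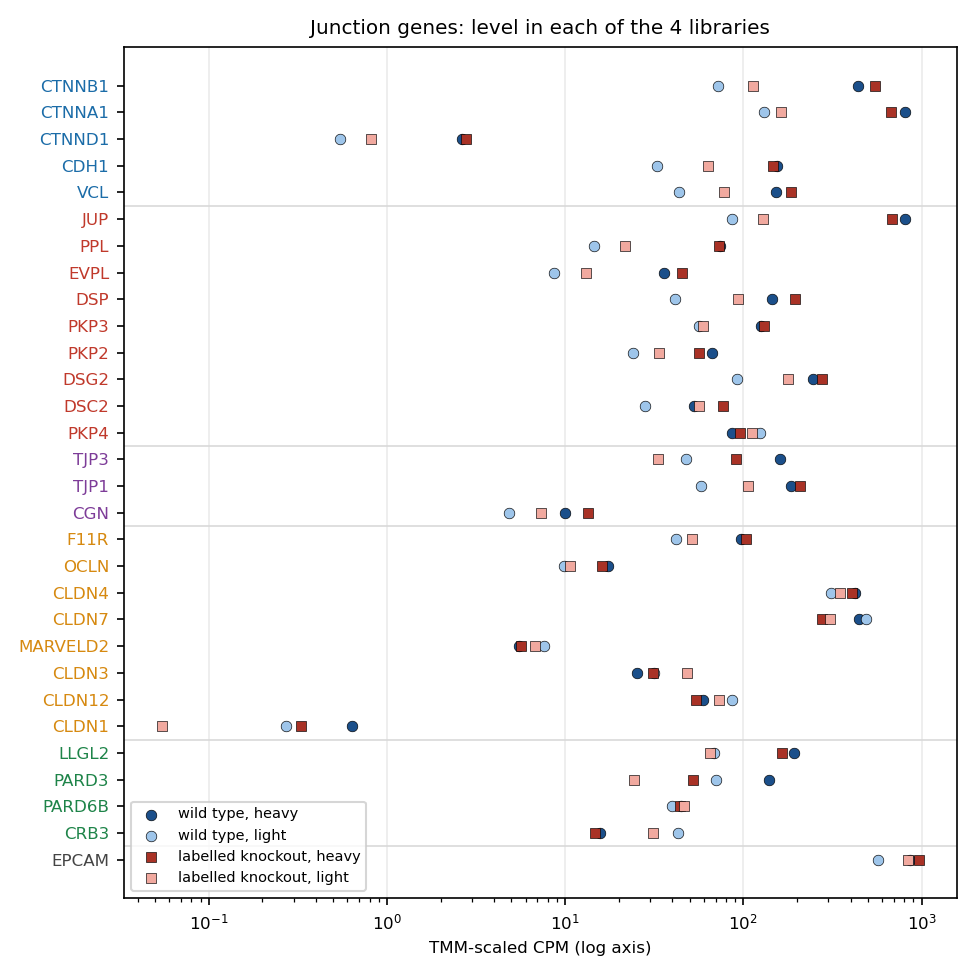
TMM-scaled CPM (counts scaled to a common library size, log axis, not divided by length) of each of the 30 genes in the 4 libraries, grouped by role. The heavy library lies to the right of the light one in both genotypes for the adherens junction genes, whereas the points of CLDN3, CLDN4, CLDN7 and CLDN12 lie closer together, and PARD3, TJP3 and CLDN7 are lower in the labelled knockout in both fractions.

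To show how the mRNAs at both ends of the heavy to light order begin, the bases around the start codon are printed for the 6 genes highest and the 6 lowest in the fitted ratio described further on. The start codon is in capitals, each sequence runs 5′ to 3′ on the gene's strand, and the coordinates are those of the start codon on GRCh38, in an exon of the GENCODE canonical transcript. These transcripts come from the annotation, and the 5′ ends used in HCT116 were not measured.
JUP, chr17:41771852-41771854, minus strand: tcagtagccacgATGgagg
CTNNB1, chr3:41224069-41224071, plus strand: ccagcgtggacaATGgcta
CTNNA1, chr5:138781925-138781927, plus strand: ctagccgcagaaATGactg
PPL, chr16:4937043-4937045, minus strand: ccgagcgccaccATGaact
CTNND1, chr11:57791479-57791481, plus strand: ccccttaccttcATGgacg
EVPL, chr17:76027196-76027198, minus strand: gcctttacgaccATGttca
CLDN7, chr17:7262041-7262043, minus strand: ctgagggcggaaATGgcca
MARVELD2, chr5:69419386-69419388, plus strand: tgaaaatcacaaATGtcaa
PKP4, chr2:158533185-158533187, plus strand: ctggaaagaggaATGccag
CLDN3, chr7:73770047-73770049, minus strand: gccgcggcagccATGtcca
CLDN12, chr7:90412677-90412679, plus strand: agcttgcctgccATGggct
CRB3, chr19:6464702-6464704, plus strand: gccacccagcccATGgcga

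A purine 3 bases before the start codon is a known feature of efficient start sites. It was present in 5 of the 6 highest and 4 of the 6 lowest genes, in 24 of all 30 (80.0%) and in 86.9% of 12281 other coding genes in the fit. MARVELD2 and CRB3, among the lowest, lacked it, as did CTNND1, among the highest. An ATG in the 5′ leader, which can divert scanning ribosomes, was annotated for 1 of the 6 highest genes (CTNND1, with 4) and for 4 of the 6 lowest. These 4 were CLDN12 with 3 upstream ATGs, PKP4 with 2, and CLDN3 and CRB3 with 1 each. Of all 30 genes 9 had an upstream ATG, against 41.4% of the other coding genes. Among those others it was 27.5% of the genes called toward heavy and 51.2% of those called toward light polysomes. These are descriptions of annotated sequences and not tests.

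The first comparison asked where each junction mRNA lay on the polysomes. Adherens junction, desmosome and scaffold mRNAs mostly leaned toward heavy polysomes, whereas the claudins lay near equal ratios and CRB3 leaned toward light polysomes. Since the libraries were scaled to a common size, these ratios are relative to other mRNAs. They do not give the share of a gene's copies in each fraction. In the edgeR fit over 13574 genes, which took both gradients as replicates, 20 of the 29 junction genes tested were called toward heavy polysomes (adjusted p under 0.05), 1 toward light and 8 were not called. The same calls were made for 30% of all genes tested (4074, heavy) and for 29.3% (3977, light). Their median log2 ratio was 1.10, against -0.07 for all genes tested. With library totals in place of TMM scaling, 18 were called heavy and 4 light, and both medians fell together (0.86 and -0.30). A change of scaling moves the ratios of all genes alike. The difference between the medians (1.17) was therefore bound to stay the same, and this is no check of it. With 1 residual degree of freedom, the spread behind these p-values is the disagreement between the wild type and the labelled knockout gradient, shared as a trend across genes.

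**Figure D2:**
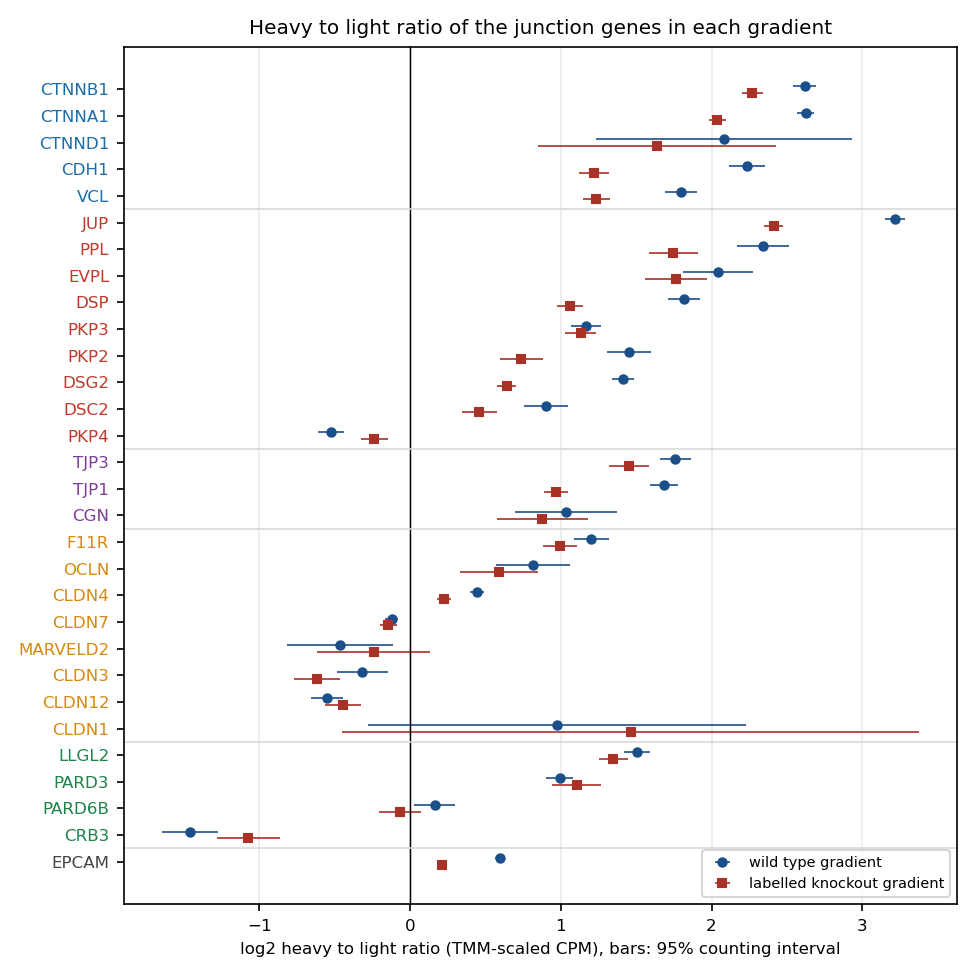
Log2 heavy to light ratio of each gene in the wild type gradient (circles) and the labelled knockout gradient (squares), with 95% counting intervals, grouped by role. In all but 5 of the 28 genes that reached 50 counts throughout the labelled knockout lies to the left of the wild type, and the order of the genes is much the same in both.

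All 5 adherens junction genes were called toward heavy polysomes. CTNNB1, the β-catenin that links CDH1 to the actin side and also carries Wnt signals, had 442, 71.8, 546 and 113 CPM. Both heavy libraries lay above both light ones, and the fitted log2 ratio was 2.45 (SE 0.32, edgeR adjusted p = 9.07e-13). CTNNA1, the α-catenin that binds actin, had 807, 131, 673 and 164 CPM. Its log2 ratio was 2.33 (SE 0.33, edgeR adjusted p = 3.01e-11). CDH1, the cadherin itself (chromosome 16, 68737292 to 68835537 on GRCh38), had 154, 32.6, 147 and 63.2 CPM. Its heavy values nearly coincided between the genotypes while its light values did not, and the log2 ratio was 1.73 (SE 0.28, edgeR adjusted p = 1.60e-08). VCL, the actin-binding vinculin, had 152, 43.8, 184 and 78.2 CPM. Its log2 ratio was 1.52 and CTNND1, with its few counts, at 2.0.

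Of the 9 desmosome and plaque genes, 8 were called toward heavy polysomes. JUP, the plakoglobin that closely resembles CTNNB1 and serves in both junction types, led all junction genes. It had 806, 86.5, 685 and 129 CPM. Heavy exceeded light several-fold in both gradients, and the log2 ratio was 2.82 (SE 0.33, edgeR adjusted p = 4.62e-15, and 0.0035 without the gradient as a block). The plakins, which tie the plaque to keratin filaments, followed. PPL (periplakin) had 73.8, 14.5, 73.5 and 21.8 CPM (log2 ratio 2.05, SE 0.27, edgeR adjusted p = 3.2e-12). EVPL (envoplakin), its partner in the cornified envelope, had 35.8, 8.62, 45.0 and 13.2 CPM and a ratio of 1.91. DSP (desmoplakin) had 146, 41.3, 195 and 93.2 CPM and a ratio of 1.44, so that all 3 plakins lay higher in both heavy libraries. The desmosomal cadherins DSG2 (247, 92.6, 277 and 178 CPM) and DSC2 (52.7, 28.2, 77.4 and 56.3 CPM) had smaller ratios, of 1.03 and 0.68 (edgeR adjusted p = 0.00146 and 0.02). The light library of the labelled knockout lay slightly above the heavy library of the wild type for DSC2, so that its fractions overlapped across genotypes. DSC2 was not called with library totals as scaling, and neither of these cadherins was called without the gradient as a block (edgeR adjusted p = 0.0549 and 0.198).

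The plakophilins, armadillo proteins of the desmosomal plaque, lay on both sides of 0. PKP3 (126, 56.1, 131 and 59.8 CPM) and PKP2 (66.4, 24.2, 56.1 and 33.6 CPM) were called toward heavy polysomes with log2 ratios of 1.15 and 1.10. PKP4, a p120-related member that is also found at adherens junctions, had 86.1, 124, 95.5 and 112 CPM. Both light libraries lay above both heavy ones, at -0.38 on the log2 scale, which was not called (SE 0.27, edgeR adjusted p = 0.221), although its coding sequence of 3579 nucleotides is longer than those of PKP2 (2514) and PKP3 (2394). With library totals as scaling PKP4 was called toward light polysomes (-0.62, adjusted p = 0.0355). The difference between the plakophilins was not tested.

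All 3 scaffolds were called heavy. TJP1 (ZO-1), which ties claudins and occludin to actin, had 186, 57.6, 207 and 106 CPM (log2 ratio 1.33, SE 0.29, edgeR adjusted p = 2.02e-05). TJP3 (ZO-3) had 161, 47.6, 90.9 and 33.2 CPM and a ratio of 1.61. CGN (cingulin), a scaffold that binds the ZO proteins, had 10.0, 4.86, 13.5 and 7.29 CPM and a ratio of 0.96, a call that was lost without the block (edgeR adjusted p = 0.0637). For all 3 the heavy libraries lay above the light ones of their own gradient. Of the 7 membrane proteins in the fit, 2 were called heavy and 5 were not called. F11R, the immunoglobulin-type adhesion molecule JAM-A, had 97.1, 42.1, 103 and 51.6 CPM. Both heavy libraries lay above both light ones by about as much (log2 ratio 1.10, SE 0.27, edgeR adjusted p = 0.000175). OCLN (occludin) had 17.5, 9.89, 16.02 and 10.6 CPM. Its log2 ratio of 0.71 was called (edgeR adjusted p = 0.0136), and the call was lost with library totals (0.133) and without the block (0.0886).

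The claudins, which line the paracellular space with small proteins that span the membrane, lay near equal ratios. CLDN4 had 424, 311, 407 and 348 CPM. CLDN7 had 446, 486, 277 and 306 CPM. For CLDN4 the heavy libraries were the higher ones and for CLDN7 the light ones within each gradient, and the log2 ratios of 0.33 and -0.13 were not called (edgeR adjusted p = 0.344 and 0.72). CLDN3 had 25.2, 31.4, 31.3 and 48.0 CPM and CLDN12 59.3, 86.9, 54.0 and 73.5 CPM. In both the light library was the higher one of each gradient, and the log2 ratios of -0.47 and -0.50 were not called either (edgeR adjusted p = 0.104 and 0.0953). With library totals as scaling both were called toward light polysomes (-0.70 and -0.73). MARVELD2, the tricellulin of the contacts where several cells meet, had 5.50, 7.63, 5.69 and 6.75 CPM and a ratio of -0.36 (edgeR adjusted p = 0.268).

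The polarity genes covered both ends. CRB3, the Crumbs protein of the apical membrane, had 15.6, 43.3, 14.7 and 31.1 CPM. Both light libraries lay above both heavy ones, and it was the single junction gene called toward light polysomes (log2 ratio -1.27, SE 0.26, edgeR adjusted p = 5.64e-06). Its coding sequence of 363 nucleotides is the shortest of the 30. LLGL2, a basolateral polarity protein, had 194, 68.2, 166 and 65.1 CPM and was called heavy at 1.43. PARD3, the scaffold of the Par complex, was called heavy at 1.05, and not without the block (edgeR adjusted p = 0.157). PARD6B, its partner, had 44.5, 39.7, 44.3 and 46.4 CPM, with the higher value once in the heavy and once in the light library, and was not called (0.05). EPCAM had 863, 571, 969.7 and 837 CPM. Its log2 ratio of 0.40 was not called (SE 0.32, edgeR adjusted p = 0.27), and its heavy libraries were the higher ones in both gradients.

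Coding length ordered part of this pattern. Across the 29 genes in the fit, Spearman's rho between coding length and the log2 heavy to light ratio was 0.53, against 0.55 across 12509 other coding genes. Both are descriptions across genes, which share the libraries and are not independent replicates. In 25 of the 29 genes the ratio lay above the median of other coding genes of the same length class, and in PKP4, MARVELD2, PARD6B and CRB3 below it. The class with 2000 to 3000 coding nucleotides held 9 junction genes with a median log2 ratio of 1.73, against 0.56 for 2036 other genes. Up to 1000 nucleotides the medians were -0.13 for 7 junction genes and -0.74 for 3852 others, and above 5000 nucleotides they were 1.68 for 4 and 0.89 for 564. From 1000 to 2000 nucleotides the 3 junction genes had a median of 0.05 and the 4813 others 0.14, and from 3000 to 5000 nucleotides these were 1.04 for 6 and 0.80 for 1244.

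JUP, with 2238 coding nucleotides, lay above 99.7% of the other genes of its class, CTNNB1 (2346) above 98.3% and CTNNA1 (2721) above 97.2%. F11R, with 900 coding nucleotides, lay above 97.5% of its class, EPCAM above 88.5% and CLDN4 above 87.1%. DSP, which at 8616 nucleotides has the longest coding sequence of the 30, lay above 74.8% of its class and had a lower log2 ratio than JUP, CTNNB1 and CTNNA1. At the other side stood PKP4, above 10.5% of its class, CRB3 above 19.8% and MARVELD2 above 30.8%. The 3 highest ratios thus belonged to catenins of middling length, not to the longest mRNAs.

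**Figure D3:**
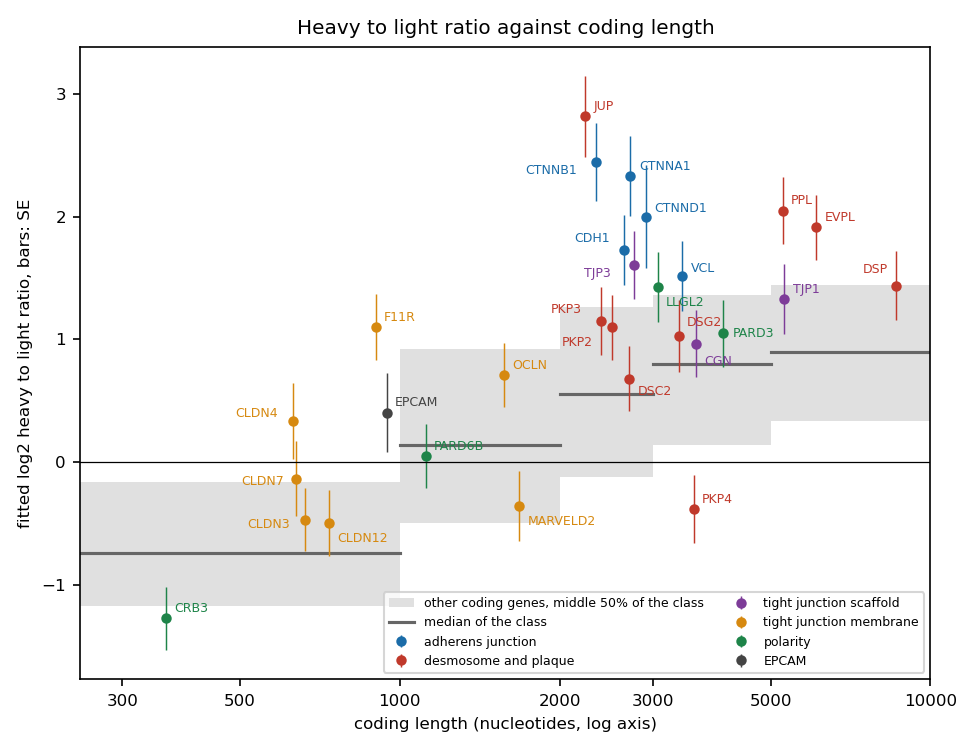
Fitted log2 heavy to light ratio (with its SE) against coding length (log axis) for the 29 junction genes in the fit. Grey boxes give the middle 50% and grey lines the median of other coding genes in 5 length classes; JUP, CTNNB1, CTNNA1 and F11R lie well above their boxes and PKP4 and CRB3 below theirs.

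The wider junction apparatus gave a weaker lean. Of 47 further junction genes, 36 were in the fit, with 17 calls toward heavy polysomes, 2 toward light ones and a median log2 ratio of 0.49. The polarity scaffold SCRIB (2.30) was the highest of them. The membrane protein VEZT (-1.11) and the Par protein PARD6A (-0.84) were the lowest, and these 2 were the genes called light. For comparison, the fit called 4074 of all 13574 genes heavy and 3977 light, with a median log2 ratio of -0.07. Whether the 36 further junction genes differ from all genes was not tested.

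Next, the genotypes were compared within each fraction. With 1 library on each side there is no replicate check and no p-value, and the 95% intervals cover counting error only. In heavy polysomes the junction genes centred on no difference: 28 had at least 100 counts in the higher library, 14 were above and 14 below 0 on the log2 scale, and the median was 0.02 (-0.04 over 10690 genes). With DESeq2 size factors the median of the junction genes changed sign (-0.01). None was 2-fold or more higher in heavy polysomes, against 3.26% of all genes, and 1 was 2-fold or more lower, against 2.60%. In light polysomes 20 of 28 were above 0, against 5536 of 10992 genes, and the medians were 0.40 and 0.00. There 1 was 2-fold or more higher (3.91% of all genes) and 1 lower (3.05%). With 28 genes, these counts lie near the shares over all genes.

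**Figure D4:**
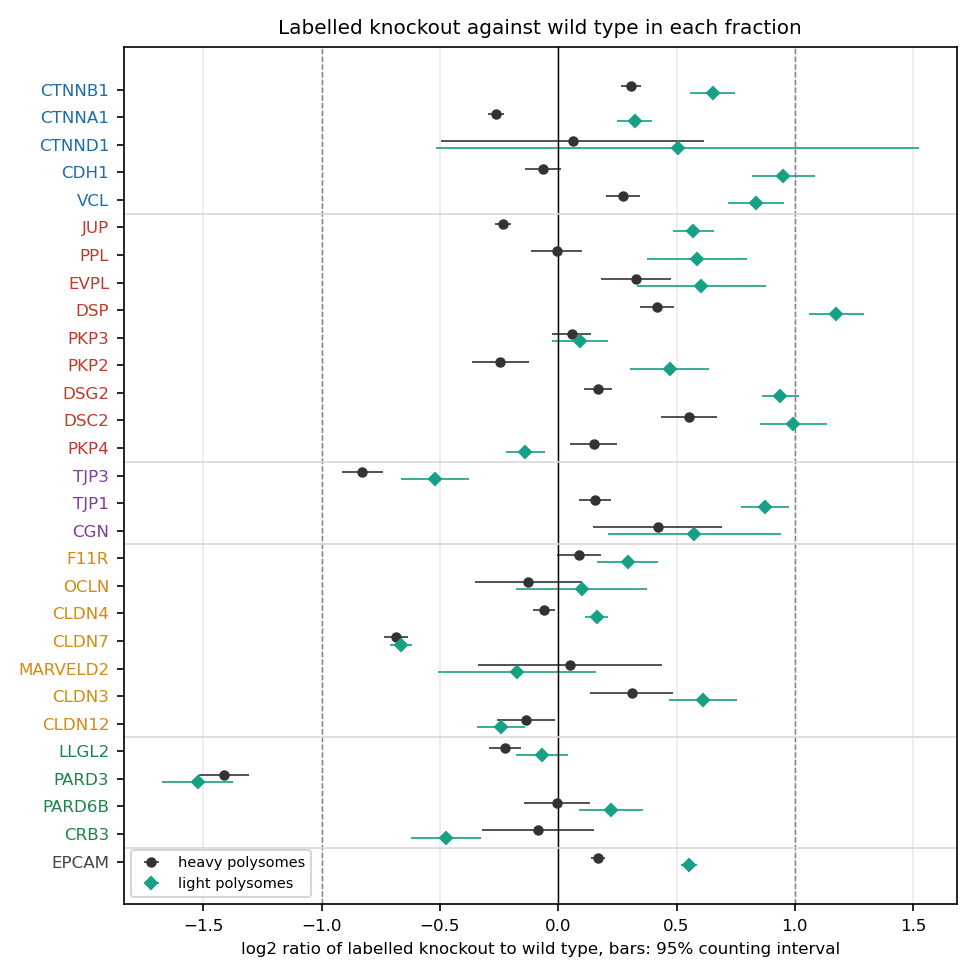
Log2 ratio between the genotypes (labelled knockout over wild type) in heavy (circles) and light polysomes (diamonds) with 95% counting intervals for 29 genes (CLDN1 is left out for its few counts). Dashed lines mark 2-fold; PARD3 alone lies beyond the lower line in both fractions, and DSP lies beyond the upper line in light polysomes.

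PARD3, which assembles the Par complex at new junctions, was the junction gene that differed most (chromosome 10, 34109560 to 34815325 on GRCh38, minus strand). It had 2637, 1542, 947 and 446 counts. Both libraries labelled knockout were the lower ones in their fraction, by log2 ratios of -1.41 (counting interval -1.52 to -1.31) in heavy and -1.52 (-1.68 to -1.37) in light polysomes. It was the 1 junction gene 2-fold lower in both fractions, as were 1.20% of 10418 genes, and none was 2-fold higher in both, as were 1.17%. Its log2 heavy to light ratio hardly differed between the wild type (0.99) and the labelled knockout gradient (1.10), so that the lower amount held in both fractions alike. Its partner PARD6B stood at -0.01 and 0.22 in heavy and light polysomes. PRKCI, the kinase of the complex, named after its values were seen, stood at -0.07 and -0.45.

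TJP3 and CLDN7 were also lower in both fractions, short of 2-fold. TJP3 had 3054, 1049, 1646 and 610 counts, with log2 ratios of -0.83 (interval -0.91 to -0.74) and -0.52 (-0.66 to -0.38). CLDN7 had 8441, 10705, 5019 and 5633 counts (-0.69, interval -0.74 to -0.64, and -0.66, interval -0.71 to -0.62). The related scaffold TJP1 went the other way (0.15 and 0.87), as did CLDN3 (0.31 and 0.61), while CLDN4 stood at -0.06 and 0.16. The ZO scaffolds and the claudins thus did not differ in a single direction.

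Of the 5 desmosomal cadherin and plakin genes, DSP, DSG2, DSC2 and EVPL were higher in both fractions of the labelled knockout. PPL was level in heavy polysomes (-0.01, interval -0.11 to 0.10, and 0.05 with library totals) and higher in light ones (0.59). DSP had 2755, 909, 3524 and 1714 counts, with log2 ratios of 0.42 (interval 0.35 to 0.49) and 1.17 (1.06 to 1.29). DSC2 stood at 0.55 and 0.99 and passed 2-fold in light polysomes with DESeq2 size factors (1.04). DSG2 stood at 0.17 and 0.94, and EVPL at 0.33 and 0.60. The remaining desmosome genes did not share this pattern. JUP (-0.23 and 0.57) and PKP2 (-0.24 and 0.47) were lower in heavy polysomes, and PKP4 (0.15 and -0.14) was lower in light ones. PKP3 was nearly level (0.06 and 0.09). The cadherin CDH1 was nearly level in heavy polysomes (-0.06) and higher in light ones (0.95, interval 0.82 to 1.09). CTNNB1 was higher in both (0.31 and 0.65). Across the 28 genes, 12 were above 0 in both fractions and 6 below 0 in both, against 3209 and 3327 of 10418 genes.

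The shift is the log2 heavy to light ratio in the labelled knockout minus that in wild type cells. It was below 0 in 23 of 28 junction genes, against 5797 of 10834 genes, and the medians were -0.29 and -0.05. The counting interval lay below 0 in 18 of them (37.2% of all genes) and above 0 in 2 (28.6%). CDH1 had the largest shift and the only 2-fold one: its log2 heavy to light ratios were 2.23 (wild type) and 1.22 (labelled knockout), a shift of -1.02 (interval -1.17 to -0.86). Of all genes, 2.37% shifted 2-fold toward light polysomes and 0.905% toward heavy. With library totals as scaling the shift of CDH1 fell short of 2-fold. JUP (-0.81), DSG2 (-0.77) and DSP (-0.76) came next. The largest shifts toward heavy were those of CRB3 (0.39, interval 0.11 to 0.67), PKP4 (0.29), MARVELD2 (0.22) and PARD3 (0.11).

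The shift went with the ratio itself, in junction genes and in other genes. Where the fitted log2 ratio was above 2, the median shift was -0.59 for 4 junction genes and -0.72 for 399 others. Between 1 and 2 these medians were -0.43 for 12 junction genes and -0.47 for 2025 others, and between 0 and 1 they were -0.23 for 6 and -0.12 for 3191. Below 0 they were positive, at 0.16 for 6 junction genes and 0.21 for 5191 others. The ratio of labelled knockout to wild type in light polysomes followed the same classes, with medians of 0.58 and 0.68 above 2, 0.54 and 0.38 between 1 and 2, 0.39 and 0.06 between 0 and 1, and -0.21 and -0.15 below 0 for junction genes and others. In this ratio in light polysomes, though not in the shift, the 6 junction genes between 0 and 1 lay furthest from the others of their class. The difference was not tested. Heavy and light polysomes were thus further apart in the wild type gradient for junction genes and for other genes of like ratio. Between the gradients Pearson's r was 0.966 and Spearman's rho 0.945 over the 28 genes, a description across genes that share libraries. All but PARD6B (0.16 and -0.07) lay on the same side of 0 in both.

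Known regulators of these genes were read from the same libraries. Of 7 repressors, 4 were in the fit, with 1 called toward heavy and 2 toward light polysomes. Of all 13574 genes tested, 4074 were called heavy and 3977 light, and lists this short were not tested against these shares. Among the repressors of CDH1, SNAI1 had 709, 403, 469 and 390 counts, and TWIST1 had 110, 344, 113 and 233. ZEB1, singled out here as a known miR-200 target, had 49, 42, 40 and 52 counts, and its log2 ratios of -0.22 and 0.55 had counting intervals that included 0. ZEB2 had at most 2 counts in each library. SNAI1 (-0.53 and 0.21) and TWIST1 (0.10 and -0.30) stayed within 2-fold in both fractions. The interval of ZEB1 lay within 2-fold in heavy polysomes (-0.81 to 0.37) and reached past it in light ones (-0.03 to 1.12), and for ZEB2 a 2-fold difference was not detectable at this depth.

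Of 13 epithelial factors, 12 were in the fit, with 5 called heavy and 2 light. Whether these counts differ from the shares over all genes was not tested. ELF3, an epithelial ETS factor, was lower in the labelled knockout at log2 ratios of -1.34 in heavy and -0.85 in light polysomes. KLF4 was lower too (-0.76 and -1.73). ESRP2, a splicing regulator of epithelial isoforms, was higher (0.53 and 0.24). The related ESRP1, named after its values were seen, had 9932, 4148, 6755 and 3535 counts. It was lower in heavy polysomes (-0.49) and nearly level in light ones (0.03). Of 4 mesenchymal counterparts 2 were in the fit, both called heavy, too few to compare with the shares over all genes. VIM had 150, 91, 222 and 175 counts and stood at 0.62 and 1.18, and CDH2, the cadherin of mesenchymal cells, had at most 4 counts in each library. COL1A1, the fibroblast marker with counts, was likewise higher (1.02 and 0.82), and its part in these results was not tested.

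Among the further junction genes, PVRL3, a nectin, was higher in the labelled knockout (1.33 and 1.41). PLEKHA7, an adherens junction protein, was lower in heavy polysomes (-1.36) and had few counts in light ones (63 and 41).

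Because the labelled alteration concerns microRNA production, matches to the miR-200 seeds in the annotated 3′ UTRs are given. The mature sequences are those of RefSeq (GRCh38.p14), with the seed, bases 2 to 8, in capitals.
hsa-miR-200b-3p: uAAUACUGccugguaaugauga
hsa-miR-200c-3p: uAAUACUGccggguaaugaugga
hsa-miR-429: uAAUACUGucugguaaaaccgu
hsa-miR-200a-3p: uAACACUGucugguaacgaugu
hsa-miR-141-3p: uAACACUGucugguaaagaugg
The first 3 share a seed and match CAGTATT in an mRNA, and the other 2 match CAGTGTT. The mRNA strand alone was searched. CAGTATT was present in 5 of 30 junction 3′ UTRs (CTNND1, DSC2, OCLN, PARD3 and PARD6B) and in 19.0% of 12485 other genes in the fit. CAGTGTT was present in 5 (CTNNA1, PKP2, VCL, TJP1 and PARD6B) and in 20.9% of the others.

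The match in PARD3 lies in the 3′ UTR at chr10:34110019-34110025 (GRCh38, minus strand), shown with its flanks and the match in capitals, and that in DSC2 at chr18:31065223-31065229 (minus strand).
PARD3: ctctcgcgtCAGTATTagagtgtgt
DSC2: aagcccgacCAGTATTtcaccagtg
These 2 genes went opposite ways, PARD3 being lower in the labelled knockout in both fractions and DSC2 higher. The others with CAGTATT stood at log2 ratios of 0.06 and 0.50 in heavy and light polysomes for CTNND1, -0.13 and 0.10 for OCLN, and -0.01 and 0.22 for PARD6B. Those with CAGTGTT stood at -0.26 and 0.32 (CTNNA1), -0.24 and 0.47 (PKP2), 0.27 and 0.84 (VCL), and 0.15 and 0.87 (TJP1). Apart from PARD3, the genes with a match had log2 ratios above 0 in light polysomes, as had 20 of the 28 junction genes with enough counts. The counting intervals of CTNND1 (-0.52 to 1.53), which is not among these 28, and of OCLN (-0.18 to 0.38) included 0. In heavy polysomes the genes with a match lay on both sides of 0. A match is a description of the annotated sequence, and microRNA levels were not measured here.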

How the data were processed

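Polysomal RNA of 4 libraries was counted per gene symbol. The deposited values are raw read counts, made with CASAVA, STAR and HTSeq on hg19 per the submitters' processing notes; no source used here gives their versions, the annotation or the strand setting, so reads of genes that overlap on opposite strands cannot be told apart. Each group has 1 library. The genes and lists were chosen with earlier results of these data known.

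Heavy and light polysomes were compared with edgeR 4.0.16 in R 4.3.3 (TMM, filterByExpr, quasi-likelihood test, gradient as a block, Benjamini-Hochberg adjustment over all genes). The 2 gradients are of different genotypes, so p-values measure the spread between these libraries. Genotype ratios and shifts used TMM-scaled CPM with a prior count of 2, a minimum of 100 counts in a pair's higher library (ratios) or 50 throughout (shifts), and 95% counting intervals. Intervals cover counting error only, since reads lacking molecular identifiers can be copies of one molecule. A count of 0 allows up to 3 counts, or 0.136 to 0.166 CPM.

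Symbols were matched to GENCODE release 44 (GRCh38) for 23035 and through RefSeq synonyms for 1369 of 26364. It served for positions, lengths, overlaps and transcript sequences, while counts stayed those made on hg19. Lengths are those of the Ensembl canonical transcript. Alternatives were other scalings, DESeq2 1.42.0, no filter, no block, each gradient alone, a prior count of 0.5 and a minimum of 20 counts. All 30 genes could be named, with full values for the ends of each order and a fixed core, and up to 2 genes in each direction of every further list; exceptions are marked. Some genes of the further lists are not reported here. Python 3.11.15, numpy 2.4.6, pandas 2.3.3, scipy 1.17.1 and matplotlib 3.10.9 were used.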

Additional observations from a re-analysis of the deposited data

Results flagged for a closer look

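In 5 junction genes the ratio of labelled knockout to wild type pointed one way in heavy and the other way in light polysomes, with both counting intervals clear of 0. The log2 ratios in heavy and light polysomes were -0.26 and 0.32 for CTNNA1, -0.23 and 0.57 for JUP, -0.24 and 0.47 for PKP2, 0.15 and -0.14 for PKP4, and -0.06 and 0.16 for CLDN4. With library totals as scaling the heavy ratio of CLDN4 was -0.0015, so that it had no direction. With 1 library in each group the difference between the fractions was not tested. The share of all genes with such opposite directions was not counted. JUP, CTNNA1 and PKP2 were called toward heavy polysomes, whereas PKP4, whose ratios had the opposite signs, lay toward light ones without being called. Other genes of like heavy to light ratio had class medians with the same signs. Above 2, the class of JUP and CTNNA1, they were -0.01 (heavy) and 0.68 (light). Between 1 and 2 (PKP2) they were -0.08 and 0.38, and between 0 and 1 (CLDN4) -0.06 and 0.06. Below 0 (PKP4) they were 0.01 and -0.15.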

How the results depend on the processing

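The 20 calls toward heavy and the call of CRB3 toward light polysomes were also made with DESeq2 size factors, with DESeq2's Wald test and without a filter on low counts. With library totals alone 4 genes were called light (CRB3, PKP4, CLDN3 and CLDN12), DSC2 (adjusted p = 0.138) and OCLN (0.133) were no longer called heavy, and the median ratio became 0.86 (log2). This scaling also ended the 2-fold shift of CDH1, leaving 0 genes, and with DESeq2 size factors 2 genes (DSP and DSC2) were 2-fold higher in light polysomes. With no replicate block 15 genes were called heavy, and DSG2 (adjusted p = 0.0549), DSC2 (0.198), OCLN (0.0886), CGN (0.0637) and PARD3 (0.157) were not. The edgeR adjusted p of JUP, CTNNB1, CTNNA1 and PPL was then 0.0035 each, far larger than with the block. Each gradient alone gave medians of 0.92 to 1.18, values with no test. The block pairs the heavy and light libraries of a genotype; the labels give no replicate numbers. PPL and PARD6B, near 0 in heavy polysomes, changed sign with library totals (both 0.05). The depth does not resolve 2-fold differences between the genotypes for CLDN1 and ZEB2 in either fraction, or for CTNND1 in light polysomes.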
